A study of Homo sapiens with 21 samples.

Results

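The 10 genes described here are established transcriptional targets of the tumour suppressor p53: CDKN1A, FAS, MDM2, BTG2, GDF15, TP53I3, SESN1, RRM2B, ZMAT3 and TP53INP1. They were chosen by name, with earlier results of these data known, so the share of them that passed a test is a description. Each has 1 row among the 37355 gene rows of the count table. All 10 were among the 17650 genes that passed the filter on low counts. FAS reached the filter's minimum (0.559 CPM before TMM scaling) only in the 6 antibody-treated libraries, and GDF15 in 12 libraries, none of them untreated. A difference from untreated cells was thus built into the passing of both, and their tests against untreated cells are a description. For FAS so was a difference between treated cells and the pools, and those tests are a description too. The other 8 genes reached it in every library. p53 is a sequence-specific transcription factor that is held at a low level by MDM2, an E3 ubiquitin ligase whose own gene p53 turns on. After DNA damage or other stress p53 accumulates and raises genes that stop the cell cycle, repair DNA, adjust metabolism or promote cell death. Several of these genes are also known to be raised by other factors, FOXO proteins among them. p53 protein and its binding to DNA were not measured.

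RNA was sequenced from BT474, a human HER2-amplified breast cancer line that is sensitive to HER2 antibodies, and from pools of BT474 cells that had become resistant. Trastuzumab binds HER2, the product of ERBB2, and pertuzumab binds HER2 at another site and hinders its pairing with other receptors. The 7 groups held 3 libraries each: untreated BT474; BT474 given 10 µg/mL trastuzumab for 3 days; BT474 given 10 µg/mL of each antibody for 3 days; BT-TR1 and BT-TR2, pools resistant to trastuzumab; and 2 pools resistant to both antibodies together, BT-TPR1 and BT-TPR2. No antibody was present in the pools' medium during the 7 days before harvest, and no resistant pool under antibody was measured. Each kind of resistance was thus represented by 2 pools, which are its replicates, rather than the libraries. The labels do not say whether replicates came from separate cultures, so p-values reflect the spread among these libraries alone. Comparisons with untreated cells share the same 3 untreated libraries, and a pool's comparison with treated cells shares the treated libraries with the treatment's own comparison. In bulk RNA a change in every cell and a change in the share of cells that express a gene cannot be told apart.

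Total counts ran from 7939270 to 21746391 per library. In each group the replicate 1 library deviated from its group mean along the genes' GC content (correlation across genes 0.324 to 0.639, against -0.546 to 0.0788 in the other libraries). Mitochondrially encoded transcripts took 13.7% to 33.3% of counts, the most in replicate 1 of both treated groups. ERBB2 stood at 8184 ± 1922 CPM in untreated cells and passed against them in no group by the test used throughout, which has no block by replicate number (adjusted p from 0.053 to 0.821). With such a block it was lower with trastuzumab (-0.42, adjusted p = 0.0226, with 0.0215 to 0.654 across alternatives), in BT-TR1 (-0.58, adjusted p = 0.000709, with 0.000126 to 0.616 across alternatives) and in BT-TPR1 (-0.46, adjusted p = 0.00685, with 0.00685 to 0.53 across alternatives). With both antibodies the block gave -0.568 (adjusted p = 0.00212), though replicate numbers did not pair all samples in that comparison. ERBB2 passed there in 5 of 16 alternatives. In BT-TR1 ERBB2 passed in 8 of 16 alternatives, and its sign turned with a correction for GC content (0.08, adjusted p = 0.616). Of the luminal epithelial markers EPCAM, KRT8, KRT18, KRT19, GATA3 and ERBB2, all 6 were detected in every library, with summed levels of 6170 to 13700 CPM, while the basal keratins KRT5 and KRT14 summed to at most 0.291 CPM. Summed fibroblast, leukocyte and endothelial markers lay between 16 and 46.3, 0.14 and 1.29, and 5.39 and 18.4 CPM. GATA3, a luminal transcription factor, was lower than in untreated cells in all 4 pools (-1.59 ± 0.11, adjusted p = 7.49e-09 in BT-TR1, -0.91 ± 0.11, adjusted p = 1.12e-05 in BT-TR2, -1.14 ± 0.11, adjusted p = 7.99e-07 in BT-TPR1 and -0.91 ± 0.11, adjusted p = 7.42e-06 in BT-TPR2; log2 fold change ± SE), under all 16 alternatives run for each. The keratin gene KRT8 was lower with both antibodies (-0.78 ± 0.24, adjusted p = 0.0389), a call lost on dropping any of 5 libraries (highest adjusted p = 0.174). Against untreated cells EPCAM was lower in BT-TPR1 (-0.58 ± 0.15, adjusted p = 0.00682) and KRT19 in BT-TR1 (-0.59 ± 0.22, adjusted p = 0.0414). KRT18 was higher in BT-TPR2 (0.38 ± 0.13, adjusted p = 0.0298). The endothelial cadherin gene CDH5 stood at 0.121 ± 0.0880 CPM in untreated cells, 0.645 ± 0.0554 with both antibodies, 2.60 ± 0.711 in BT-TR1, 2.01 ± 0.195 in BT-TR2, 0.424 ± 0.16 in BT-TPR1 and 0.676 ± 0.204 in BT-TPR2 (mean ± SD, n = 3). These 5 rises passed in edgeR (highest adjusted p = 0.0113, in BT-TPR1, and 0.075 there on dropping BT-TPR1 replicate 1), but like GDF15 it reached the filter's minimum in no untreated library. PECAM1, another endothelial marker, reached at most 0.345 CPM. VWF, also endothelial, stood at 12.7 ± 4.79 CPM in untreated cells and went the other way. In edgeR it was lower in BT-TR1 (-1.70 ± 0.30, adjusted p = 0.00025), BT-TPR1 (-0.90 ± 0.27, adjusted p = 0.0197) and BT-TPR2 (-1.21 ± 0.275, adjusted p = 0.00272). VWF did not pass with trastuzumab, with both antibodies or in BT-TR2 (adjusted p = 0.161, 0.0997 and 0.505). The part of these markers in the results on the 10 genes was not tested.

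Promoter sequences were examined because p53 acts through a DNA site made of 2 adjacent half-sites. RefSeq windows of 250 bases before to 50 after an annotated start (GRCh38.p14) were at hand for 8 of the 10 genes, 16 windows in all. Matches to the p53 consensus site (20 letters, no spacer, both strands) with at most 2 mismatches were found for FAS and MDM2, against 0.649% of all 35116 windows. Allowing 3 mismatches, a limit chosen after these windows were seen, added SESN1 and GDF15, against 5.20% of all windows. A gene was counted if any of its windows held a match, while the shares are of single windows. The counts and shares of this and the other motifs are thus unlike measures. CDKN1A had no match in its windows; these windows do not reach its upstream region. The sequences shown are those of 3 genes that rose with the antibodies and the single match of the fourth, read 5′ to 3′ on the strand of the gene. Capitals mark the p53 site matches in MDM2, FAS and SESN1, and in CDKN1A they mark GGGCGG, the GC box bound by SP1-type factors, which 45.0% of all windows hold.
MDM2 (chr12:68808767-68809001, plus strand): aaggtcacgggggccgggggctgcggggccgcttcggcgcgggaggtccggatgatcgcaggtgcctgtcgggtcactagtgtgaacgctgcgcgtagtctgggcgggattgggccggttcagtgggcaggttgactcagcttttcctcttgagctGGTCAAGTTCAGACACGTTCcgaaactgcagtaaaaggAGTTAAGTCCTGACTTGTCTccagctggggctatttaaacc
SESN1 (chr6:109008989-109009238, minus strand): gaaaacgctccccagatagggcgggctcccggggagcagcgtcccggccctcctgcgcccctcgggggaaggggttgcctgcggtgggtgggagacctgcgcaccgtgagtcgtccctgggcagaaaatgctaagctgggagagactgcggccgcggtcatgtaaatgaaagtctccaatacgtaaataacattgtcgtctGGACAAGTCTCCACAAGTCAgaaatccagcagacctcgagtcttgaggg
CDKN1A (chr6:36678464-36678657, plus strand): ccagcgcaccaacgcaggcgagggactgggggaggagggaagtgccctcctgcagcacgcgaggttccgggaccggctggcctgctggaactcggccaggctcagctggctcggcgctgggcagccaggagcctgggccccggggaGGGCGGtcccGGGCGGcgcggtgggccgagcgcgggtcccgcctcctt
FAS (chr10:88991309-88991328, plus strand): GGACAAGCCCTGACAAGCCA
All 4 stretches lie inside the annotated span of their gene, before a start that is not its outermost one. The first MDM2 match began 94 bases before one annotated start and 101 before another, and the second match began 56 and 63 bases before them. The first MDM2 match had 2 mismatches and the second 3. In FAS the match began 122 bases before the start, with 2 mismatches, and in SESN1 49 bases before it, with 3. The GDF15 match lay after the start. Of the other motifs, GGGCGG was in windows of 7 members, while GTAAACA (a FOXO motif, in 3.42% of all windows) and TATAAA (in 11.5%) were each in windows of GDF15 alone among the members. Matches of different motifs were counted separately and could overlap. A match describes letters and not binding.

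CDKN1A, BTG2, MDM2, SESN1, TP53INP1 and FAS rose with trastuzumab and with both antibodies. With trastuzumab 6 of the 10 genes rose and 0 fell at an adjusted p under 0.05 (edgeR), against 3.71% of all tested genes that rose and 3.78% that fell. With both antibodies 8 of 10 rose and 0 fell, against 6.39% and 6.02% of all genes. Without FAS and GDF15, 5 of 8 rose with trastuzumab and 6 of 8 with both antibodies, with medians of 0.57 and 0.74. The median log2 fold change of the 10 genes was 0.71 with trastuzumab and 0.86 with both antibodies, and over all tested genes it was -0.02 and -0.01. In the pools CDKN1A, FAS, MDM2 and SESN1 passed the test of a rise over untreated cells in no pool, while BTG2 and ZMAT3 passed as higher than untreated in each pool and TP53I3 passed as lower in BT-TPR1 and BT-TPR2.

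**Figure D1:**
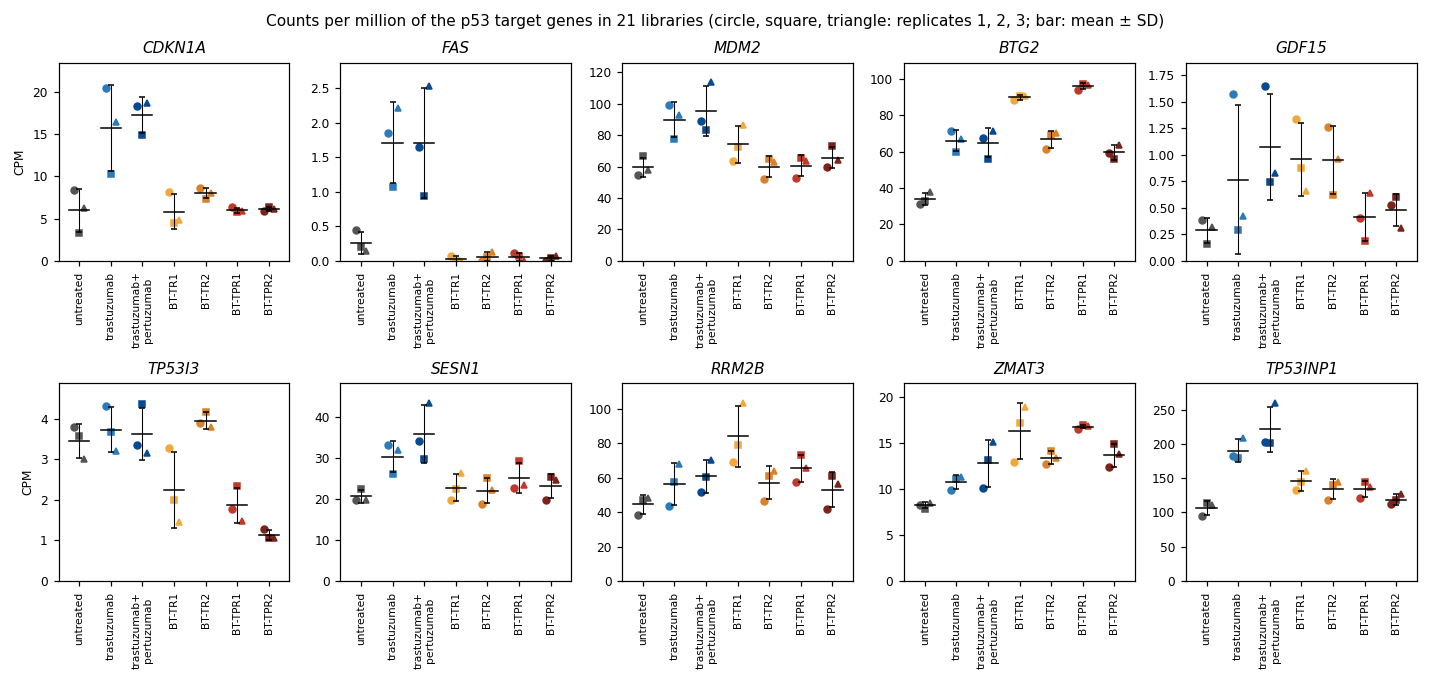
CPM (counts scaled to library total, y axis, linear from 0) of the 10 genes in the 21 libraries, by group on the x axis; circles, squares and triangles are replicates 1, 2 and 3, and bars show the mean ± SD of 3 libraries. CDKN1A, FAS and TP53INP1 stand higher in both treated groups than in any pool library, while BTG2 and ZMAT3 stand above the untreated libraries in every other library.

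CDKN1A encodes p21, the inhibitor of cyclin-dependent kinases through which p53 stops the cell cycle (ENSG00000124762.13, chromosome 6, 36676460 to 36687339, plus strand, hg38). Its level in replicates 1, 2 and 3 was 8.35, 3.31 and 6.26 CPM in untreated cells, 20.5, 10.3 and 16.4 CPM with trastuzumab and 18.3, 14.9 and 18.7 CPM with both antibodies. Every treated library lay above every untreated one. CDKN1A rose with trastuzumab (1.40 ± 0.27, adjusted p = 0.00339; log2 fold change ± SE, also in the other parentheses) and with both antibodies (1.53 ± 0.27, adjusted p = 0.000876). In the pools its level was 8.16, 4.44 and 4.88 CPM in BT-TR1, 8.64, 7.36 and 8.08 in BT-TR2. BT-TPR1 libraries had 6.32, 5.73 and 5.89 CPM and BT-TPR2 libraries 5.93, 6.42 and 6.14 CPM. All 12 pool libraries lay below the lowest treated library, and the range of each of the 4 pools overlapped that of untreated cells. The change from untreated cells was -0.01 ± 0.29 in BT-TR1 and 0.43 ± 0.28 in BT-TR2. It was 0.00 ± 0.28 in BT-TPR1, 0.05 ± 0.28 in BT-TPR2, and none of the 4 passed (adjusted p from 0.272 to 0.992). Against cells under the antibody to which they were resistant, CDKN1A was lower in BT-TR1 (-1.41 ± 0.28, adjusted p = 0.000768), BT-TR2 (-0.97 ± 0.27, adjusted p = 0.0128), BT-TPR1 (-1.53 ± 0.27, adjusted p = 0.000367) and BT-TPR2 (-1.49 ± 0.27, adjusted p = 0.000381). In order of mean level, both treated groups came first (17.3 ± 2.10 and 15.7 ± 5.14 CPM, with overlapping libraries), then BT-TR2 (8.03 ± 0.639), and then BT-TPR2, BT-TPR1, untreated cells and BT-TR1, whose means lay between 5.83 and 6.17 CPM. The trastuzumab call ended when only the compared groups were fitted (adjusted p = 0.052), with 1.71e-09 to 0.052 across alternatives. That of BT-TR2 against trastuzumab ended on dropping trastuzumab replicate 1 (adjusted p = 0.0757), with 3.18e-05 to 0.0757 across alternatives. CDKN1A has a GC content of 58.6%, and in BT-TR1 against untreated cells its sign turned with a correction for GC content (0.55, adjusted p = 0.0958) and passed with that correction and the block (0.59, adjusted p = 0.0296, with 0.0296 to 1 across alternatives), while BT-TR2 passed with the replicate block (0.46, adjusted p = 0.0471, with 0.0224 to 0.707 across alternatives).

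BTG2, an antiproliferative gene that recruits mRNA deadenylation (ENSG00000159388.5, chromosome 1, 203305491 to 203309602, plus strand), stood above the untreated level in the pools as well as under treatment. Its level was 31.5, 33.1 and 37.8 CPM in untreated cells, 71.3, 59.7 and 67.2 CPM with trastuzumab and 67.5, 56 and 71.5 CPM with both antibodies. In the pools it was 88.6, 91 and 90.5 CPM in BT-TR1, 61.4, 69.1 and 70.2 in BT-TR2. BT-TPR1 libraries had 94.2, 97.3 and 96.8 CPM and BT-TPR2 libraries 59.2, 55.9 and 63.9 CPM. Each of the 18 other libraries lay above the highest untreated one, and the libraries of BT-TR1 and BT-TPR1 lay above all others. BTG2 rose with trastuzumab (0.95 ± 0.10, adjusted p = 1.83e-05) and with both antibodies (0.93 ± 0.10, adjusted p = 8.95e-06). It was also higher than in untreated cells in BT-TR1 (1.40 ± 0.10, adjusted p = 1.17e-08), BT-TR2 (0.97 ± 0.10, adjusted p = 2.03e-06), BT-TPR1 (1.49 ± 0.10, adjusted p = 7.89e-09) and BT-TPR2 (0.80 ± 0.10, adjusted p = 1.29e-05). These 6 calls held under all 16 alternatives run for each. Measured against treated cells, BTG2 was higher still in BT-TR1 (0.45 ± 0.10, adjusted p = 0.00255) and BT-TPR1 (0.56 ± 0.10, adjusted p = 0.000481), and in BT-TR2 (0.02 ± 0.10, adjusted p = 0.925) and BT-TPR2 (-0.12 ± 0.10, adjusted p = 0.403) the difference did not pass. The order of means was BT-TPR1 (96.1 ± 1.63 CPM), BT-TR1 (90.1 ± 1.26), then BT-TR2, trastuzumab, both antibodies and BT-TPR2 (59.7 to 66.9 CPM, neighbours overlapping), and untreated cells (34.2 ± 3.27).

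FAS encodes a death receptor of the tumour necrosis factor receptor family that starts apoptosis when bound by its ligand (ENSG00000026103.19, chromosome 10, 88990582 to 89015785, plus strand). Its counts were low: 15 reads over the 3 untreated libraries, 102 with trastuzumab and 101 with both antibodies, 1 in BT-TR1, 3 in BT-TR2, 3 in BT-TPR1 and 2 in BT-TPR2. By library its level was 0.440, 0.207 and 0.136 CPM in untreated cells, 1.85, 1.07 and 2.21 CPM with trastuzumab and 1.65, 0.939 and 2.53 CPM with both antibodies. No pool library exceeded 0.128 CPM, so that each of the 12 lay below the lowest untreated library, and 5 of the 12 had a count of 0. FAS rose with trastuzumab (2.72 ± 0.54, adjusted p = 0.00191) and with both antibodies (2.72 ± 0.54, adjusted p = 0.00112), given as a description because of the filter. The ratio of summed counts, scaled to the normalized totals, was 6.81 (exact 95% interval 3.94 to 12.6) and 6.80 (exact 95% interval 3.94 to 12.6), where the interval covers counting error only. For the pools against untreated cells the ratio was 0.122 (exact 95% interval 0.0029 to 0.793) in BT-TR1, 0.231 (exact 95% interval 0.0428 to 0.815) in BT-TR2, 0.244 (exact 95% interval 0.0452 to 0.862) in BT-TPR1 and 0.145 (exact 95% interval 0.0161 to 0.625) in BT-TPR2. In edgeR BT-TPR2 passed (adjusted p = 0.0494), with adjusted p = 0.0643, 0.112 and 0.122 in the others. Against treated cells FAS was lower in BT-TR1 (ratio 0.0179 (exact 95% interval 0.000449 to 0.102), adjusted p = 6.02e-05), BT-TR2 (ratio 0.0339 (exact 95% interval 0.00687 to 0.102), adjusted p = 3.31e-05), BT-TPR1 (ratio 0.0358 (exact 95% interval 0.00727 to 0.108), adjusted p = 3.88e-05) and BT-TPR2 (ratio 0.0214 (exact 95% interval 0.00255 to 0.0792), adjusted p = 1.34e-05). Since FAS reached the filter's minimum only in treated libraries, these tests are also a description. The BT-TPR2 call against untreated cells ended under library-size scaling (adjusted p = 0.0586), on replicates 2 and 3 (0.353), using DESeq2 (0.0533), using limma (0.0634), on dropping untreated replicate 1 (0.198) or 2 (0.0696) and on dropping BT-TPR2 replicate 1 (0.117), 2 (0.114) or 3 (0.08), with 0.0148 to 0.353 across alternatives. With the replicate block BT-TR1 (adjusted p = 0.0319, with 0.0199 to 0.214 across alternatives) and BT-TR2 (adjusted p = 0.049, with 0.0414 to 0.584 across alternatives) passed.

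MDM2, the ubiquitin ligase that closes the negative feedback on p53 (ENSG00000135679.21, chromosome 12, 68808176 to 68850686, plus strand), was an abundant member. Its level was 54.7, 66.5 and 57.7 CPM in untreated cells, 98.9, 77.8 and 93 CPM with trastuzumab and 88.9, 83.5 and 114 CPM with both antibodies. Every treated library lay above every untreated one, but by a smaller factor than in CDKN1A or FAS. MDM2 rose with trastuzumab (0.59 ± 0.14, adjusted p = 0.0172) and with both antibodies (0.68 ± 0.14, adjusted p = 0.0043). BT-TR1 averaged 74.1 ± 11.5, BT-TR2 60.0 ± 6.84, BT-TPR1 60.6 ± 6.86 and BT-TPR2 65.7 ± 6.60 CPM (mean ± SD, n = 3), and each pool's libraries overlapped the untreated ones. None of the pools passed against untreated cells (0.31 ± 0.15, 0.01 ± 0.15, 0.02 ± 0.15 and 0.14 ± 0.14, adjusted p from 0.0916 to 0.974), though BT-TR1 passed with the replicate block (0.30, adjusted p = 0.0287, with 0.0287 to 0.776 across alternatives), without untreated replicate 2 (adjusted p = 0.0487) and without BT-TR1 replicate 1 (0.0318). Against treated cells MDM2 was lower in BT-TR2 (-0.58 ± 0.14, adjusted p = 0.00655), BT-TPR1 (-0.65 ± 0.14, adjusted p = 0.00257) and BT-TPR2 (-0.54 ± 0.14, adjusted p = 0.00895). The difference in BT-TR1 (-0.28 ± 0.15, adjusted p = 0.13) did not pass, and did with the GC correction (-0.57, adjusted p = 0.000315, with 5.25e-05 to 0.456 across alternatives). The call with trastuzumab ended under library-size scaling (adjusted p = 0.0568), when only the compared groups were fitted (0.0676), on dropping untreated replicate 1 (0.0619) or 3 (0.0604) and on dropping trastuzumab replicate 1 (0.0694) or 3 (0.0699), with 5.44e-05 to 0.0699 across alternatives. The call in BT-TR2 against trastuzumab ended under library-size scaling (adjusted p = 0.0516), with 1.86e-05 to 0.0516 across alternatives. That in BT-TPR2 against both antibodies ended under library-size scaling (adjusted p = 0.0536) and on dropping dual-antibody replicate 3 (0.0695), with 9.66e-05 to 0.0695 across alternatives.

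SESN1, a sestrin that restrains mTORC1 and limits oxidative stress (ENSG00000080546.13, chromosome 6, 108986437 to 109094819, minus strand), stood at 19.9, 22.4 and 19.7 CPM in untreated cells, 33.1, 26 and 32 CPM with trastuzumab and 34.2, 29.7 and 43.5 CPM with both antibodies. All treated libraries lay above the untreated ones. It rose with trastuzumab (0.56 ± 0.16, adjusted p = 0.041) and with both antibodies (0.79 ± 0.16, adjusted p = 0.00283). BT-TR1 averaged 22.8 ± 3.28, BT-TR2 22.1 ± 3.09, BT-TPR1 25.1 ± 3.64 and BT-TPR2 23.2 ± 3.00 CPM, and none passed against untreated cells (changes of 0.10 to 0.28, adjusted p from 0.209 to 0.698). In BT-TR1 the sign turned with the GC correction (-0.14, adjusted p = 0.426), and in BT-TR2 without BT-TR2 replicate 2 (-0.01, adjusted p = 0.978). Against treated cells SESN1 was lower in BT-TR1 (-0.42 ± 0.16, adjusted p = 0.0483), BT-TR2 (-0.46 ± 0.16, adjusted p = 0.0454), BT-TPR1 (-0.51 ± 0.16, adjusted p = 0.0235) and BT-TPR2 (-0.62 ± 0.16, adjusted p = 0.00634). The call with trastuzumab ended under library-size scaling (adjusted p = 0.0995), on replicates 2 and 3 (0.0608), when only the compared groups were fitted (0.0913), on dropping untreated replicate 1 (0.0959), 2 (0.0707) or 3 (0.113) and on dropping trastuzumab replicate 1 (0.118) or 3 (0.141), with 0.000598 to 0.141 across alternatives. In BT-TR1 against trastuzumab it ended unfiltered (adjusted p = 0.052), with RLE scaling (0.0518), under library-size scaling (0.104), on replicates 2 and 3 (0.183), when only the compared groups were fitted (0.0581), on dropping trastuzumab replicate 1 (0.174) or 3 (0.116) and on dropping BT-TR1 replicate 1 (0.202) or 2 (0.13), with 3.28e-05 to 0.202 across alternatives. The BT-TR2 call ended unfiltered (adjusted p = 0.0533), under library-size scaling (0.183), on replicates 2 and 3 (0.187), when only the compared groups were fitted (0.0562), on dropping trastuzumab replicate 1 (0.153) or 3 (0.12) and on dropping BT-TR2 replicate 1 (0.176) or 3 (0.0995), with 0.00134 to 0.187 across alternatives. The BT-TPR1 call ended under library-size scaling (adjusted p = 0.14), on dropping dual-antibody replicate 3 (0.149) and on dropping BT-TPR1 replicate 1 (0.091) or 3 (0.0843), with 0.000801 to 0.149 across alternatives. The BT-TPR2 call ended on dropping dual-antibody replicate 3 (adjusted p = 0.0529), with 7.68e-05 to 0.0529 across alternatives.

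TP53INP1, a stress protein that takes part in autophagy and in p53 phosphorylation (ENSG00000164938.13, chromosome 8, 94925972 to 94949411, minus strand), had the highest level per kilobase of exon among the members in untreated cells (18.8 CPM per kilobase, against 0.0613 for FAS, the lowest). Its level was 94.9, 114 and 111 CPM in untreated cells, 182, 179 and 209 CPM with trastuzumab and 203, 200.5 and 259 CPM with both antibodies. In the pools it was 132, 145 and 161 CPM in BT-TR1, 118, 140.0 and 145 in BT-TR2. BT-TPR1 libraries had 121, 144 and 138 CPM and BT-TPR2 libraries 112, 118 and 127 CPM. The 3 kinds of group formed steps: treated libraries all lay above pool libraries, and the untreated libraries lay below those of BT-TR1, BT-TR2 and BT-TPR1 and overlapped BT-TPR2. TP53INP1 rose with trastuzumab (0.84 ± 0.12, adjusted p = 0.000291) and with both antibodies (1.05 ± 0.12, adjusted p = 1.24e-05). It was higher than in untreated cells in BT-TR1 (0.45 ± 0.12, adjusted p = 0.00646), BT-TR2 (0.34 ± 0.12, adjusted p = 0.0499) and BT-TPR1 (0.33 ± 0.12, adjusted p = 0.0478), and BT-TPR2 did not pass (0.16 ± 0.12, adjusted p = 0.341). Against treated cells it was lower in BT-TR1 (-0.38 ± 0.12, adjusted p = 0.0185), BT-TR2 (-0.50 ± 0.12, adjusted p = 0.00561), BT-TPR1 (-0.72 ± 0.12, adjusted p = 0.000221) and BT-TPR2 (-0.90 ± 0.12, adjusted p = 1.79e-05). Of the pool calls against untreated cells, that of BT-TR1 ended with the GC correction (adjusted p = 0.131) and with the GC correction and the block (0.0585), with 3.93e-05 to 0.131 across alternatives. With the GC correction its log2 value was 0.15. That of BT-TR2 ended unfiltered (adjusted p = 0.123), with RLE scaling (0.0593), under library-size scaling (0.072), using limma (0.0599), when only the compared groups were fitted (0.134), on dropping untreated replicate 1 (0.172), 2 (0.0603) or 3 (0.0705) and on dropping BT-TR2 replicate 2 (0.156) or 3 (0.17), with 0.000131 to 0.172 across alternatives. That of BT-TPR1 ended unfiltered (adjusted p = 0.127), with RLE scaling (0.0549), using limma (0.053), when only the compared groups were fitted (0.127), on dropping untreated replicate 1 (0.147) or 3 (0.0673) and on dropping BT-TPR1 replicate 2 (0.194) or 3 (0.121), with 0.000222 to 0.194 across alternatives. Against trastuzumab, the BT-TR1 call ended under library-size scaling (adjusted p = 0.0754), on dropping trastuzumab replicate 3 (0.0791) and on dropping BT-TR1 replicate 1 (0.1) or 2 (0.0688), with 2.83e-09 to 0.1 across alternatives. The BT-TR2 call ended under library-size scaling (adjusted p = 0.0751), with 5.3e-07 to 0.0751 across alternatives.

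**Figure D2:**
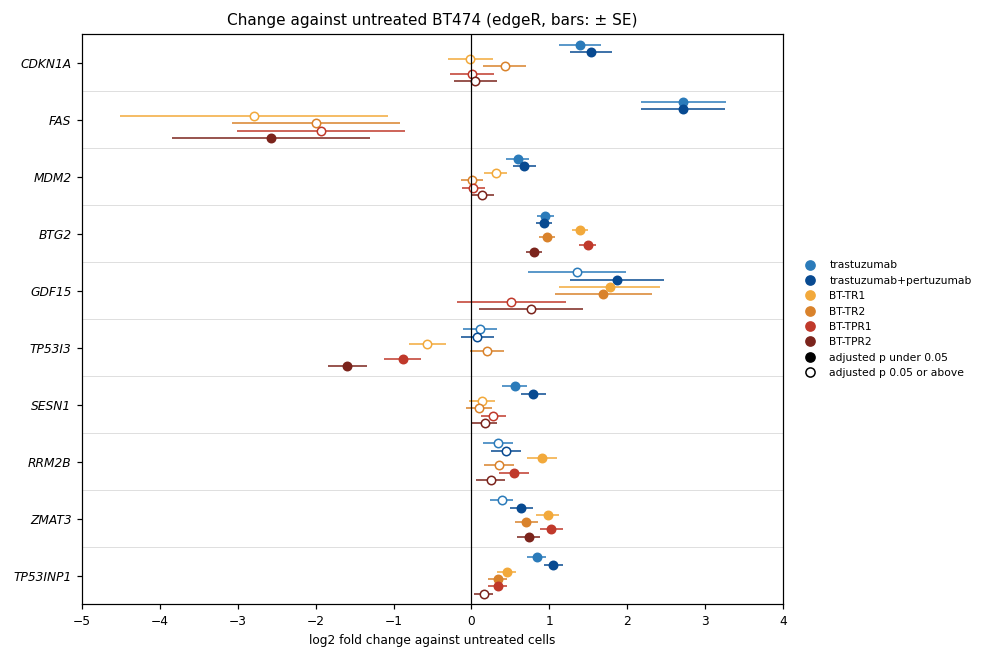
Log2 fold change against untreated BT474 (x axis) of each gene (y axis) in the 2 treated groups and the 4 pools; points are edgeR estimates with bars of ± 1 SE, filled where the adjusted p is under 0.05. FAS in the pools rests on 1 to 3 reads a group, so its fitted values there depend on the model and its bars are wide. CDKN1A sits near 0 in BT-TR1, BT-TPR1 and BT-TPR2, and BTG2 sits between 0.80 and 1.49 in every group.

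ZMAT3, an RNA-binding zinc finger protein that regulates splicing and RNA stability (ENSG00000172667.10, chromosome 3, 179017223 to 179072279, minus strand), stood higher in the pools than in untreated cells. Its level was 8.30, 7.86 and 8.53 CPM in untreated cells, 9.93, 11 and 11.3 CPM with trastuzumab and 10.1, 13.2 and 15.1 CPM with both antibodies. Pool levels were 13, 17.1 and 18.9 CPM in BT-TR1, 12.7, 14.1 and 13.4 in BT-TR2. BT-TPR1 libraries had 16.6, 16.9 and 16.9 CPM and BT-TPR2 libraries 12.4, 14.9 and 13.8 CPM. No other library was as low as the highest untreated one. With trastuzumab the change did not pass (0.39 ± 0.15, adjusted p = 0.119) but did with the replicate block (0.39, adjusted p = 0.0168, with 0.0153 to 0.329 across alternatives), and with both antibodies ZMAT3 rose (0.64 ± 0.15, adjusted p = 0.00736). It was higher than in untreated cells in BT-TR1 (0.98 ± 0.15, adjusted p = 6.8e-05), BT-TR2 (0.70 ± 0.15, adjusted p = 0.00183), BT-TPR1 (1.03 ± 0.15, adjusted p = 4.64e-05) and BT-TPR2 (0.73 ± 0.15, adjusted p = 0.00091), and these 4 calls held under all 16 alternatives run for each. Against treated cells BT-TR1 passed as higher (0.59 ± 0.15, adjusted p = 0.00417), and BT-TR2 (0.31 ± 0.14, adjusted p = 0.128), BT-TPR1 (0.39 ± 0.14, adjusted p = 0.0536) and BT-TPR2 (0.10 ± 0.14, adjusted p = 0.667) did not pass. With the replicate block BT-TR2 (0.32, adjusted p = 0.027, with 0.0215 to 0.396 across alternatives) and BT-TPR1 (0.40, adjusted p = 0.00505, with 0.00138 to 0.253 across alternatives) passed too, BT-TPR1 also without trastuzumab plus pertuzumab replicate 3 (0.0212). The call with both antibodies ended when only the compared groups were fitted (adjusted p = 0.0712) and on dropping dual-antibody replicate 3 (0.0637), with 0.000181 to 0.0712 across alternatives.

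RRM2B supplies the p53-inducible small subunit of ribonucleotide reductase, which makes deoxynucleotides for DNA repair (ENSG00000048392.11, chromosome 8, 102204502 to 102239118, minus strand). Its level was 38.4, 47.3 and 48.3 CPM in untreated cells, 43.9, 57.5 and 68.1 CPM with trastuzumab and 51.6, 60.5 and 70.3 CPM with both antibodies. BT-TR1 averaged 84 ± 17.5, BT-TR2 57.2 ± 9.39, BT-TPR1 65.4 ± 7.85 and BT-TPR2 53 ± 10.0 CPM. The replicate 1 library was the lowest in each of the 7 groups, and RRM2B has a GC content of 39.5%, against a median of 48.2% over tested genes. RRM2B was higher than in untreated cells in BT-TR1 (0.91 ± 0.19, adjusted p = 0.00113) and BT-TPR1 (0.55 ± 0.19, adjusted p = 0.0371), and in BT-TR1 also than in trastuzumab-treated cells (0.57 ± 0.19, adjusted p = 0.0234). Changes with trastuzumab (0.34 ± 0.19, adjusted p = 0.302), with both antibodies (0.44 ± 0.19, adjusted p = 0.131), in BT-TR2 (0.36 ± 0.19, adjusted p = 0.177) and in BT-TPR2 (0.25 ± 0.19, adjusted p = 0.335) did not pass. The change with both antibodies passed unfiltered (adjusted p = 0.0447), on replicates 2 and 3 (0.0132) and with the GC correction (0.00714), with 0.000241 to 0.427 across alternatives. With the replicate block RRM2B passed with trastuzumab (0.33, adjusted p = 0.00965, with 0.00205 to 0.709 across alternatives), in BT-TR2 (0.35, adjusted p = 0.00301, with 0.000754 to 0.41 across alternatives) and in BT-TPR2 (0.24, adjusted p = 0.0291, with 0.019 to 0.723 across alternatives). The BT-TPR1 call ended on dropping untreated replicate 1 (adjusted p = 0.119) or 2 (0.0558) and on dropping BT-TPR1 replicate 2 (0.159) or 3 (0.0838), with 5.75e-06 to 0.159 across alternatives. That of BT-TR1 against trastuzumab ended under library-size scaling (adjusted p = 0.073), with the GC correction (0.0738), on dropping trastuzumab replicate 1 (0.121) or 2 (0.0505) and on dropping BT-TR1 replicate 3 (0.148), with 1.01e-05 to 0.148 across alternatives.

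TP53I3, a quinone oxidoreductase linked to reactive oxygen species and also known as PIG3 (ENSG00000115129.13, chromosome 2, 24077433 to 24085861, minus strand), did not pass under either treatment. Its level was 3.79, 3.57 and 2.99 CPM in untreated cells, 4.32, 3.67 and 3.20 CPM with trastuzumab and 3.35, 4.35 and 3.16 CPM with both antibodies, with overlapping ranges. In the pools it was 3.26, 2.00 and 1.45 CPM in BT-TR1, 3.90, 4.17 and 3.78 in BT-TR2. BT-TPR1 libraries had 1.78, 2.33 and 1.47 CPM and BT-TPR2 libraries 1.28, 1.07 and 1.06 CPM. All libraries of BT-TPR1 and BT-TPR2 lay below the lowest untreated library, and 2 of the 3 BT-TR1 libraries did too. TP53I3 changed by 0.11 ± 0.21, adjusted p = 0.812 with trastuzumab and 0.07 ± 0.21, adjusted p = 0.867 with both antibodies, the latter turning in sign on dropping untreated replicate 3 (-0.02, adjusted p = 0.966) or dual-antibody replicate 2 (-0.08, adjusted p = 0.883). It fell in BT-TPR1 (-0.89 ± 0.23, adjusted p = 0.00791) and BT-TPR2 (-1.59 ± 0.25, adjusted p = 6.57e-05). Against cells under both antibodies it was also lower (BT-TPR1 -0.96 ± 0.23, adjusted p = 0.00456; BT-TPR2 -1.67 ± 0.24, adjusted p = 3.45e-05). These 4 calls held under all 16 alternatives run for each. In BT-TR1 the change against untreated cells was -0.57 ± 0.24, adjusted p = 0.0585, which passed with the replicate block (-0.57, adjusted p = 0.0195, with 0.00651 to 0.571 across alternatives), without untreated replicate 3 (adjusted p = 0.049) and without BT-TR1 replicate 1 (0.00651). BT-TR2 did not pass against untreated cells (0.20 ± 0.21, adjusted p = 0.529) or against trastuzumab (0.09 ± 0.21, adjusted p = 0.81). Against trastuzumab BT-TR1 was lower (-0.68 ± 0.24, adjusted p = 0.0283), a call that ended unfiltered (adjusted p = 0.052), under library-size scaling (0.0501), with the GC correction (0.261), with the GC correction and the block (0.215), when only the compared groups were fitted (0.0781), on dropping trastuzumab replicate 1 (0.108) or 2 (0.0543) and on dropping BT-TR1 replicate 2 (0.113) or 3 (0.143), with 0.00311 to 0.261 across alternatives.

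GDF15, a secreted stress cytokine of the TGF-beta family (ENSG00000130513.6, chromosome 19, 18374731 to 18389176, plus strand), was counted rarely, with 17 reads over the untreated libraries, 43 with trastuzumab, 62 with both antibodies, 33 in BT-TR1, 48 in BT-TR2, 20 in BT-TPR1 and 27 in BT-TPR2. Its level was 0.385, 0.155 and 0.318 CPM in untreated cells, 1.57, 0.293 and 0.424 CPM with trastuzumab and 1.65, 0.742 and 0.828 CPM with both antibodies. In the pools it was 1.33, 0.870 and 0.660 CPM in BT-TR1, 1.26, 0.618 and 0.962 in BT-TR2. BT-TPR1 libraries had 0.402, 0.189 and 0.641 CPM and BT-TPR2 libraries 0.524, 0.605 and 0.313 CPM. The replicate 1 library was the highest in untreated cells, both treatments and both trastuzumab-resistant pools, and GDF15 has a GC content of 60.2%. GDF15 stood higher than in untreated cells with both antibodies (1.87 ± 0.61, adjusted p = 0.0384), in BT-TR1 (1.77 ± 0.65, adjusted p = 0.0285) and in BT-TR2 (1.69 ± 0.62, adjusted p = 0.0433), the 3 groups in which every library reached the filter's minimum. Since no untreated library reached it, these tests are a description. It did not pass with trastuzumab (1.35 ± 0.63, adjusted p = 0.19; with the replicate block 1.30, adjusted p = 0.0356, with 0.018 to 0.774 across alternatives), in BT-TPR1 (0.51 ± 0.70, adjusted p = 0.61) or in BT-TPR2 (0.76 ± 0.67, adjusted p = 0.389). Against cells under both antibodies the pools resistant to both passed with the block (BT-TPR1 -1.36 ± 0.58, adjusted p = 0.0828, with the block -1.37, adjusted p = 0.00891, with 0.00611 to 0.321 across alternatives; BT-TPR2 -1.10 ± 0.55, adjusted p = 0.132, with the block -1.06, adjusted p = 0.0273, with 0.0236 to 0.452 across alternatives). These counts leave wide counting intervals: with trastuzumab the ratio of summed counts to untreated was 2.53 (exact 95% interval 1.41 to 4.74), and with both antibodies it was 3.68 (exact 95% interval 2.13 to 6.72). The call with both antibodies ended on dropping untreated replicate 1 (adjusted p = 0.0542), 2 (0.125) or 3 (0.0822) and on dropping dual-antibody replicate 1 (0.131) or 3 (0.0644), with 0.000465 to 0.131 across alternatives. The BT-TR1 call ended on dropping untreated replicate 2 (adjusted p = 0.0773) or 3 (0.052) and on dropping BT-TR1 replicate 1 (0.125), with 0.000218 to 0.125 across alternatives. The BT-TR2 call ended on dropping untreated replicate 1 (adjusted p = 0.0546), 2 (0.137) or 3 (0.0794) and on dropping BT-TR2 replicate 1 (0.132) or 3 (0.0876), with 0.00189 to 0.137 across alternatives. Against trastuzumab neither BT-TR1 (0.42 ± 0.55, adjusted p = 0.553) nor BT-TR2 (0.34 ± 0.51, adjusted p = 0.682) passed, but BT-TR1 did without trastuzumab replicate 1 (1.46, adjusted p = 0.0436, with 0.0436 to 0.956 across alternatives).

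Counting only members that passed against untreated cells, rises outnumbered falls in every pool except BT-TPR2, where the numbers were equal. The median log2 fold change of the 10 genes from untreated cells was above 0 in each pool. It was 0.38 for BT-TR1 and 0.35 for BT-TR2, then 0.31 for BT-TPR1 and 0.16 for BT-TPR2. Over all tested genes these medians lay between -0.00976 and -0.00239. Leaving out FAS and GDF15 gave the same medians. Against untreated cells, 5 rose and 0 fell in BT-TR1, where 21.3% of all tested genes rose and 22.3% fell. In BT-TR2 4 rose and 0 fell (12.7% and 12.1% of all genes), in BT-TPR1 4 rose and 1 fell (12.9% and 14.4%), and in BT-TPR2 2 rose and 2 fell (15.6% and 16.0%). Without FAS and GDF15, 4 of 8 rose in BT-TR1, 3 in BT-TR2, 4 in BT-TPR1 and 2 in BT-TPR2, and 0, 0, 1 and 1 fell. Adding pertuzumab to trastuzumab brought 0 of 10 members past the test, against 0.867% of all genes. At an unadjusted p under 0.05 (edgeR) there were 0 members, against 913 of 17650 tested genes. DESeq2 and limma called 0 members, against 213 and 135 of all genes. The largest difference between the treatments was that of GDF15 (0.52 ± 0.50), and for CDKN1A it was 0.14 ± 0.26, which does not show that the treatments acted alike. Against trastuzumab-treated cells, 3 members were higher and 5 lower in BT-TR1 (20.3% and 19.6% of all genes) and 0 higher and 5 lower in BT-TR2 (11.7% and 11.5%). Against cells under both antibodies, 1 was higher and 6 lower in BT-TPR1 (11.9% and 14%), and 0 higher and 6 lower in BT-TPR2 (13.6% and 14.6%). The medians of the 10 genes in these 4 comparisons were -0.33, -0.22, -0.69 and -0.76, against -0.03 to 0.03 over all tested genes. FAS is among the lower genes in each. Without FAS and GDF15, 4 of 8 were lower in BT-TR1, 4 in BT-TR2, 5 in BT-TPR1 and 5 in BT-TPR2, and 3, 0, 1 and 0 were higher. The medians of these 8 genes were -0.33, -0.22, -0.58 and -0.58. With only the groups compared in the fit, 3 members rather than 6 passed with trastuzumab, and library size alone left 2 rather than 5 in BT-TR2 against trastuzumab.

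**Figure D3:**
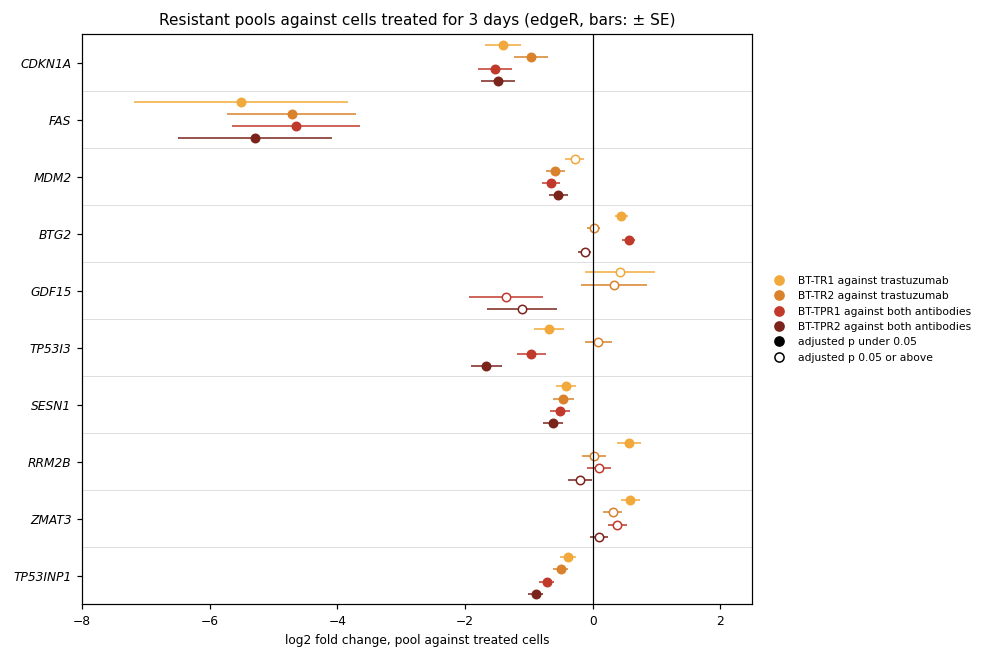
Log2 fold change (x axis) of each gene (y axis) in a resistant pool against BT474 cells given the antibody or antibodies to which the pool is resistant; points are edgeR estimates with bars of ± 1 SE, filled where the adjusted p is under 0.05. CDKN1A, FAS, SESN1 and TP53INP1 are filled and below 0 in the 4 pools, BTG2 is filled and above 0 in BT-TR1 and BT-TPR1, and the FAS values rest on 1 to 3 reads in each pool.

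Pools of the same resistance were also compared, a test added after the files were seen. Between BT-TR2 and BT-TR1 17.7% of all genes passed, and of the members BTG2 was lower in BT-TR2 (-0.43 ± 0.10, adjusted p = 0.0121) and TP53I3 higher (0.77 ± 0.24, adjusted p = 0.0337). Between BT-TPR2 and BT-TPR1 3.45% of all genes passed, and among the members BTG2 did, being lower in BT-TPR2 (-0.69 ± 0.10, adjusted p = 0.000495). The BTG2 libraries of BT-TR2 (61.4 to 70.2 CPM) and BT-TR1 (88.6 to 91 CPM) did not overlap, nor did those of BT-TPR2 (55.9 to 63.9 CPM) and BT-TPR1 (94.2 to 97.3 CPM). For BTG2 the difference between BT-TR2 and BT-TR1 ended unfiltered (adjusted p = 0.0556), under library-size scaling (0.0637), on dropping BT-TR1 replicate 3 (0.0529) and on dropping BT-TR2 replicate 1 (0.0894), with 9.44e-05 to 0.0894 across alternatives. The one between BT-TPR2 and BT-TPR1 held under all 16 alternatives. The TP53I3 call ended with the GC correction (adjusted p = 0.269), with the GC correction and the block (0.194), when only the compared groups were fitted (0.0842), on dropping BT-TR1 replicate 2 (0.133) or 3 (0.163) and on dropping BT-TR2 replicate 1 (0.109) or 2 (0.0747), with 0.00377 to 0.269 across alternatives. RRM2B did not pass between BT-TR2 and BT-TR1 (-0.55 ± 0.19, adjusted p = 0.0507), though the libraries did not overlap. It passed there in 7 of 16 alternatives, among them DESeq2 (adjusted p = 0.0298, with 4.53e-05 to 0.26 across alternatives). RRM2B passed between BT-TPR2 and BT-TPR1 with the replicate block (-0.31, adjusted p = 0.0251, with 0.00908 to 0.793 across alternatives).

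Other genes of the p53 pathway were taken from 3 lists: 12 further targets that act in apoptosis, 14 in arrest, repair and metabolism, and 14 family members, regulators and cofactors of p53, of which 11, 13 and 13 were tested. Of the apoptosis list 0 passed with trastuzumab and 0 with both antibodies, with a median log2 fold change of 0.30 and 0.27. At an unadjusted p under 0.05 (edgeR) stood 2 and 3 of its 11 tested genes, against 3943 and 4824 of all 17650. Of the 13 tested genes of the arrest list 3 rose and 1 fell with trastuzumab (3.71% and 3.78% of all genes), and 3 rose and 0 fell with both antibodies (6.39% and 6.02%). RPS27L, a ribosomal protein paralog induced by p53, rose from 8.33 ± 0.589 to 15.5 ± 2.58 CPM with trastuzumab (0.90 ± 0.13, adjusted p = 0.00032) and to 16.6 ± 1.42 CPM with both antibodies (0.99 ± 0.13, adjusted p = 5.8e-05). SESN2, another sestrin, rose with trastuzumab (0.80 ± 0.19, adjusted p = 0.0157) and with both antibodies (0.73 ± 0.19, adjusted p = 0.0184), as did CCNG1, the cyclin G1 gene (0.53 ± 0.16, adjusted p = 0.0455 and 0.64 ± 0.16, adjusted p = 0.0115). The kinase gene PLK2 fell with trastuzumab (-0.30 ± 0.09, adjusted p = 0.0368). Of the 13 tested regulators 0 rose and 2 fell with trastuzumab (3.71% and 3.78% of all genes), and 0 rose and 2 fell with both antibodies (6.39% and 6.02%). Among regulators CHEK2, a checkpoint kinase upstream of p53, fell with trastuzumab (-0.64 ± 0.12, adjusted p = 0.00219) and with both antibodies (-0.74 ± 0.12, adjusted p = 0.000337), as did TP53BP1, a DNA damage adaptor (-0.45 ± 0.12, adjusted p = 0.0211 and -0.56 ± 0.12, adjusted p = 0.00301). Several of these calls depended on a setting or a library. With trastuzumab that of SESN2 ended on dropping untreated replicate 2 (adjusted p = 0.076) and on dropping trastuzumab replicate 3 (0.0614), with 9.12e-07 to 0.076 across alternatives. With both antibodies it ended on dropping untreated replicate 2 (adjusted p = 0.0768) and on dropping dual-antibody replicate 3 (0.0731), with 5.83e-07 to 0.0768 across alternatives. With trastuzumab the CCNG1 call ended under library-size scaling (adjusted p = 0.132), using limma (0.0529), when only the compared groups were fitted (0.0975), on dropping untreated replicate 1 (0.133), 2 (0.067) or 3 (0.104) and on dropping trastuzumab replicate 1 (0.0645), 2 (0.0575) or 3 (0.219), with 7.89e-05 to 0.219 across alternatives. With both antibodies it ended on dropping dual-antibody replicate 3 (adjusted p = 0.074), with 1.24e-05 to 0.074 across alternatives. For TP53BP1 the trastuzumab call ended unfiltered (adjusted p = 0.0692), under library-size scaling (0.129), when only the compared groups were fitted (0.192), on dropping untreated replicate 2 (0.119) or 3 (0.0767) and on dropping trastuzumab replicate 1 (0.119) or 3 (0.055), with 4.21e-05 to 0.192 across alternatives. The call with both antibodies ended when only the compared groups were fitted (adjusted p = 0.0598), with 1.95e-06 to 0.0598 across alternatives. The PLK2 call ended unfiltered (adjusted p = 0.338), with RLE scaling (0.05), under library-size scaling (0.15), on replicates 2 and 3 (0.0505), using limma (0.0582), when only the compared groups were fitted (0.293), on dropping untreated replicate 1 (0.0658) or 2 (0.22) and on dropping trastuzumab replicate 1 (0.0931), 2 (0.148) or 3 (0.09), with 0.000721 to 0.338 across alternatives. The CHEK2 call with trastuzumab ended when only the compared groups were fitted (adjusted p = 0.0835), with 6.56e-06 to 0.0835 across alternatives.

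In BT-TR1 1 of the 11 tested genes of the apoptosis list rose and 7 fell against untreated cells, with a median of -0.71, where 21.3% of all tested genes rose and 22.3% fell. The GC correction, for which the list's count is not given, ended the calls of PHLDA3 and BBC3 among these falls. With it 3739 of all tested genes rose and 3061 fell, against 3752 and 3941 without it. In the other pools the list's falls stood near the share of all genes: 1 of 11 in BT-TR2 (12.1% of all genes fell), 2 in BT-TPR1 (14.4%) and 2 in BT-TPR2 (16.0%). Its rises were 0, 0 and 1 in these pools (12.7%, 12.9% and 15.6% of all genes). TNFRSF10B, which encodes the TRAIL death receptor DR5, fell in all 4 pools: BT-TR1 (-0.71 ± 0.18, adjusted p = 0.00464), BT-TR2 (-0.64 ± 0.18, adjusted p = 0.0138), BT-TPR1 (-0.69 ± 0.18, adjusted p = 0.00802) and BT-TPR2 (-0.79 ± 0.18, adjusted p = 0.0026). AEN, the apoptosis-enhancing nuclease, fell in BT-TR1 (-0.79 ± 0.24, adjusted p = 0.0143), BT-TPR1 (-0.85 ± 0.24, adjusted p = 0.0131) and BT-TPR2 (-0.66 ± 0.24, adjusted p = 0.0396), and PHLDA3, an inhibitor of AKT, fell in BT-TR1 (-1.11 ± 0.38, adjusted p = 0.0226). Of the 13 tested genes of the arrest list 3 rose and 4 fell in BT-TR1 (21.3% and 22.3% of all genes), and 2 rose and 2 fell in BT-TR2 (12.7% and 12.1%). BT-TPR1 had 1 rise and 2 falls (12.9% and 14.4%), and BT-TPR2 had 3 of each (15.6% and 16.0%). CCNG1 rose in BT-TR1 (0.75 ± 0.16, adjusted p = 0.00114), BT-TR2 (0.51 ± 0.16, adjusted p = 0.0229), BT-TPR1 (0.46 ± 0.16, adjusted p = 0.0365) and BT-TPR2 (0.56 ± 0.16, adjusted p = 0.0115), and RPS27L in BT-TR1 (0.50 ± 0.14, adjusted p = 0.00754), BT-TR2 (0.38 ± 0.14, adjusted p = 0.0462) and BT-TPR2 (0.59 ± 0.13, adjusted p = 0.00254). TIGAR, a regulator of glycolysis, rose in BT-TR1 (0.83 ± 0.20, adjusted p = 0.00259), where NINJ1, a mediator of plasma membrane rupture, fell from 70.4 ± 24.2 to 19 ± 5.51 CPM (-1.87 ± 0.28, adjusted p = 7.08e-05). In BT-TPR2 the stress gene GADD45A rose (0.71 ± 0.14, adjusted p = 0.000833) and SFN, the stratifin gene, fell (-1.03 ± 0.34, adjusted p = 0.0288). PLK2 fell in all 4 pools: BT-TR1 (-0.24 ± 0.09, adjusted p = 0.0308), BT-TR2 (-0.32 ± 0.09, adjusted p = 0.0114), BT-TPR1 (-0.42 ± 0.09, adjusted p = 0.00127) and BT-TPR2 (-0.59 ± 0.09, adjusted p = 3.92e-05). Of the 13 tested regulators 2 rose and 3 fell in BT-TR1 (21.3% and 22.3% of all genes), and 0 rose and 4 fell in BT-TR2 (12.7% and 12.1%). BT-TPR1 had 0 rises and 4 falls (12.9% and 14.4%), and BT-TPR2 had 0 and 5 (15.6% and 16.0%). HIPK2, a kinase of p53, fell in BT-TR1 (-0.58 ± 0.12, adjusted p = 0.00113), BT-TR2 (-0.52 ± 0.12, adjusted p = 0.00431) and BT-TPR2 (-1.06 ± 0.12, adjusted p = 3.01e-06). ATM, the DNA damage kinase, fell in BT-TR2 (-0.61 ± 0.16, adjusted p = 0.00913) and BT-TPR2 (-0.61 ± 0.16, adjusted p = 0.00698). TP63, a p53 relative, fell in BT-TR1 (-1.16 ± 0.19, adjusted p = 0.000135), BT-TR2 (-0.90 ± 0.18, adjusted p = 0.00123), BT-TPR1 (-1.34 ± 0.18, adjusted p = 3.1e-05) and BT-TPR2 (-1.82 ± 0.19, adjusted p = 8.25e-07).

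The calls of NINJ1, TIGAR, CCNG1, HIPK2 and TNFRSF10B in BT-TR1, of TP63 in each pool, and of GADD45A, RPS27L, HIPK2, PLK2 and TNFRSF10B in BT-TPR2 held under all 16 alternatives run for each. The others named depended on a setting or a library. In BT-TR1 the PHLDA3 call ended with the GC correction (adjusted p = 0.298), with the GC correction and the block (0.108), on dropping untreated replicate 1 (0.164) and on dropping BT-TR1 replicate 2 (0.0872) or 3 (0.093), with 5.61e-07 to 0.298 across alternatives. The AEN call in BT-TR1 ended on dropping untreated replicate 1 (adjusted p = 0.14) and on dropping BT-TR1 replicate 3 (0.0513), with 4.59e-05 to 0.14 across alternatives. In BT-TPR1 it was lost on dropping untreated replicate 1 (adjusted p = 0.113) and on dropping BT-TPR1 replicate 2 (0.0619) or 3 (0.0657), with 1.71e-05 to 0.113 across alternatives. In BT-TPR2 it was lost when only the compared groups were fitted (adjusted p = 0.0889), on dropping untreated replicate 1 (0.296) and on dropping BT-TPR2 replicate 2 (0.104) or 3 (0.132), with 0.000266 to 0.296 across alternatives. RPS27L in BT-TR1 lost its call unfiltered (adjusted p = 0.0702), with the GC correction (0.225), with the GC correction and the block (0.106) and when only the compared groups were fitted (0.0568), with 0.0025 to 0.225 across alternatives. In BT-TR2 it was lost unfiltered (adjusted p = 0.241), on replicates 2 and 3 (0.0573), with the GC correction (0.0815), using limma (0.0513), when only the compared groups were fitted (0.13), on dropping untreated replicate 1 (0.0606), 2 (0.129) or 3 (0.0686) and on dropping BT-TR2 replicate 1 (0.0982) or 2 (0.18), with 0.0147 to 0.241 across alternatives. CCNG1 lost it in BT-TR2 on dropping untreated replicate 1 (adjusted p = 0.0823) or 3 (0.0552) and on dropping BT-TR2 replicate 2 (0.0822) or 3 (0.0627), with 6.02e-05 to 0.0823 across alternatives. In BT-TPR1 it was lost when only the compared groups were fitted (adjusted p = 0.0657), on dropping untreated replicate 1 (0.108) or 3 (0.0785) and on dropping BT-TPR1 replicate 2 (0.202), with 0.000287 to 0.202 across alternatives. In BT-TPR2 it was lost on dropping BT-TPR2 replicate 2 (adjusted p = 0.0821), with 2.72e-05 to 0.0821 across alternatives. TNFRSF10B lost it in BT-TR2 on dropping untreated replicate 1 (adjusted p = 0.0859) and on dropping BT-TR2 replicate 2 (0.0612), with 1.26e-05 to 0.0859 across alternatives. In BT-TPR1 it was lost on dropping untreated replicate 1 (adjusted p = 0.0649), with 2.71e-05 to 0.0649 across alternatives. ATM in BT-TR2 lost it under library-size scaling (adjusted p = 0.0619), when only the compared groups were fitted (0.0745) and on dropping untreated replicate 2 (0.0939), with 1.99e-05 to 0.0939 across alternatives. In BT-TPR2 it was lost under library-size scaling (adjusted p = 0.0525), when only the compared groups were fitted (0.0566) and on dropping untreated replicate 2 (0.0814), with 1.13e-05 to 0.0814 across alternatives. HIPK2 in BT-TR2 lost it under library-size scaling (adjusted p = 0.0797), with 8.57e-06 to 0.0797 across alternatives. SFN in BT-TPR2 lost it on dropping untreated replicate 1 (adjusted p = 0.116) or 3 (0.061) and on dropping BT-TPR2 replicate 2 (0.065) or 3 (0.124), with 1.09e-05 to 0.124 across alternatives. PLK2 lost it in BT-TR1 unfiltered (adjusted p = 0.264), under library-size scaling (0.13), on replicates 2 and 3 (0.0728), when only the compared groups were fitted (0.146), on dropping untreated replicate 1 (0.0783) or 2 (0.278) and on dropping BT-TR1 replicate 1 (0.159), 2 (0.093) or 3 (0.0839), with 3.06e-05 to 0.278 across alternatives. In BT-TR2 it was lost unfiltered (adjusted p = 0.163), under library-size scaling (0.167), when only the compared groups were fitted (0.128) and on dropping untreated replicate 2 (0.101), with 0.000222 to 0.167 across alternatives, and in BT-TPR1 under library-size scaling (adjusted p = 0.0881), with 1.18e-05 to 0.0881 across alternatives.

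**Figure D4:**
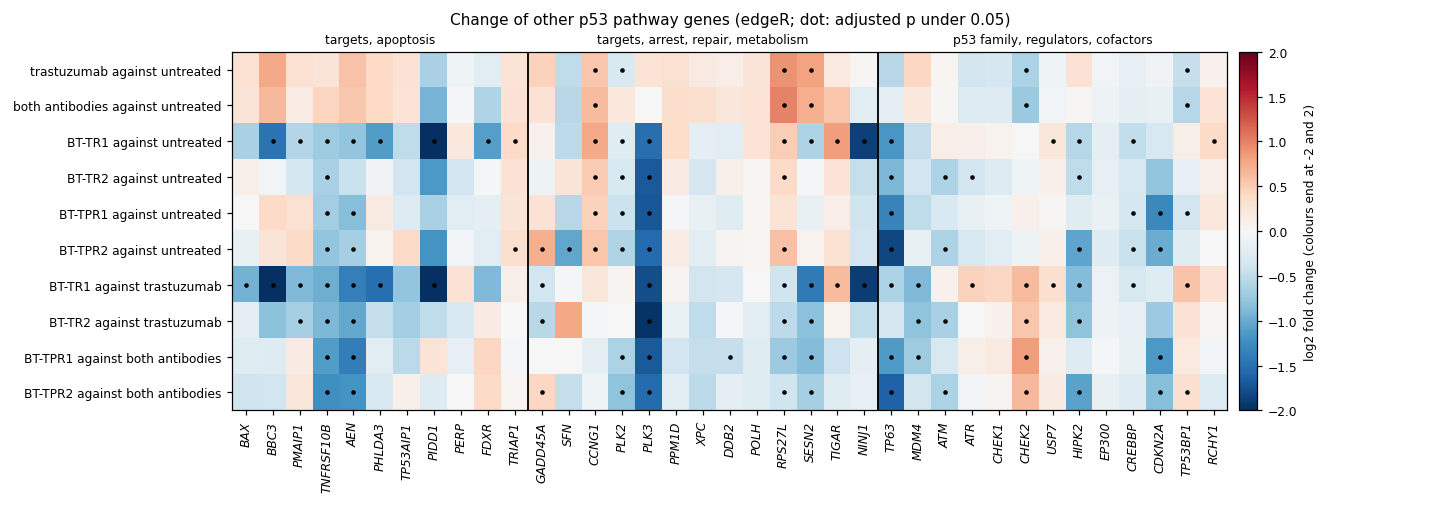
Log2 fold changes (colour, red higher and blue lower, ending at -2 and 2) of the 37 tested genes of the 3 other p53 lists (x axis) in the 2 treatments and 4 pools against untreated cells and in the 4 pools against treated cells (y axis); black dots mark an adjusted p under 0.05 in edgeR. RPS27L, SESN2 and CCNG1 are red with dots in both treatments, and TNFRSF10B and AEN are blue with dots in each pool against treated cells.

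Genes whose level most resembled those of CDKN1A and FAS across the 21 libraries were ranked by Pearson's r of log2 CPM, as a description. For CDKN1A these were DHRS12 (r = 0.952), NFKBIA, which encodes the NF-kappaB inhibitor IkB-alpha (0.918), RAD51D (0.913) and ABHD4 (0.912). For FAS they were DDX42 (0.964), RP11-332M2.1 (0.956), RAI2 (0.956) and C17orf58 (0.952). The points share libraries within 7 groups, so differences between groups enter r. The counting was not stated to use strand, so reads of a gene and an overlapping neighbour cannot be told apart. BTG2, RRM2B and ZMAT3 overlap no annotated gene. FAS overlaps ACTA2, the smooth muscle actin gene, on the other strand, and ACTA2 reached at most a mean of 0.0688 CPM in any group. TP53INP1 overlaps NDUFAF6, whose mean ran from 35.9 to 47.6 CPM and whose change passed against untreated cells in BT-TPR2 (0.41 ± 0.12, adjusted p = 0.0184). TP53I3 overlaps FAM228B (1.46 to 2.34 CPM) and MDM2 overlaps the carboxypeptidase M gene, named CPM (means of 0.406 to 0.954 in the unit of the same name), and neither passed in any comparison with untreated cells. CDKN1A, GDF15 and SESN1 overlap the RNA genes DINOL, MIR3189 and AL390208.1. SESN1 also overlaps RNU6-653P, and FAS overlaps RF02116. MDM2 further overlaps AC025423.1 and AC025423.2 on its own strand and AC025423.4 on the other. None of these was analysed here.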

How the data were processed

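RNA-seq read counts per gene were deposited by the authors as whole, unnormalized counts, with a second table of variance-stabilized log2 values that the authors made from them. Bowtie2, featureCounts, DESeq2 and hg38 are named per the submitters' processing notes; versions, settings, strandedness and annotation release are not given in the sources used here. The 10 genes and all lists were chosen with earlier results of these data known.

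The count table was tested with edgeR 4.0.16 under R 4.3.3 (filterByExpr with a minimum count of 10 and total of 15, TMM scaling, quasi-likelihood test, Benjamini-Hochberg adjustment over all 17650 tested genes of 37355). One fit held all 21 libraries, 7 groups of 3, with 14 residual degrees of freedom, and calls had an adjusted p under 0.05. CPM values are counts scaled to the TMM-adjusted library total. Depth was 7939270 to 21746391 counts per library, and intervals of count ratios cover counting error only. Replicates differed by more than sampling noise (chi-square per degree of freedom of 5.85 to 83.2). Same-numbered replicates deviated together (each correlation over 0.1) in 10 of 13 comparisons, a hint from the data, since the labels give numbers only; there the fit with a replicate block is given beside a result whose call it changed.

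Alternatives were no filter, RLE scaling, library size alone, DESeq2 1.42.0, limma 3.58.1 on the deposited log2 values, only the groups compared, replicates 2 and 3 alone, the replicate block, a GC correction (17554 genes with GC content from GENCODE 29) with and without the block, and leaving out each library. An adjusted p that DESeq2 gave as NA was not used, which leaves 15 alternatives for that result. Positions are from GENCODE 29. All 10 genes are named in every group. Of the lists, the called genes named are the 3 that rose most and the 3 that fell most against untreated cells, at a mean of at least 5 CPM; calls of those genes in other pools, and the marker genes, were added after their values were seen. Also named are the 4 genes most like CDKN1A and like FAS. The procedure was tested on simulated data. One gene of the regulator list is not reported here and was left out of its counts.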

Additional observations from a re-analysis of the deposited data

Results flagged for a closer look

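Pools selected with the same antibodies differed from each other in 3 results by a direct test: 2 of the 10 genes between BT-TR2 and BT-TR1, where 17.7% of all genes passed, and 1 of 10 between BT-TPR2 and BT-TPR1, where 3.45% did. BTG2 was lower in BT-TR2 than in BT-TR1 (-0.43, adjusted p = 0.0121 in edgeR), with 3 of 3 libraries below all those of the other pool, and the call was lost in 4 of 16 alternatives (adjusted p = 9.44e-05 to 0.0894). TP53I3 was higher in BT-TR2 than in BT-TR1 (0.77, adjusted p = 0.0337), and the call was lost in 7 of 16 alternatives (adjusted p = 0.00377 to 0.269), among them the GC correction (0.41, adjusted p = 0.269). BTG2 was lower in BT-TPR2 than in BT-TPR1 (-0.69, adjusted p = 0.000495), a call that held under all 16 alternatives (range 2.74e-08 to 0.0181). Each kind of resistance offers a single pair of pools.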

How the results depend on the processing

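Of the 10 genes, the number called against that under alternatives was, where it moved by over 1.5 times, trastuzumab against untreated 6 (3 when only the compared groups were fitted), BT-TR1 against untreated 5 (8 with the replicate block), BT-TR2 against untreated 4 (7 with the replicate block, 7 with the GC correction and the block, 2 to 3 leaving out 1 library), BT-TPR1 against untreated 5 (3 to 5 leaving out 1 library), BT-TR1 against trastuzumab 8 (4 under library-size scaling, 5 to 6 leaving out 1 library), BT-TR2 against trastuzumab 5 (2 under library-size scaling, 3 to 5 leaving out 1 library), BT-TR2 against BT-TR1 2 (1 under library-size scaling, 4 with the replicate block, 4 on replicates 2 and 3, 1 with the GC correction, 1 when only the compared groups were fitted, 0 to 4 leaving out 1 library) and BT-TPR2 against BT-TPR1 1 (2 with the replicate block, 4 with the GC correction and the block). Among the named results and alternatives run, 2692 kept side and direction, 238 lost the call, 93 gained it and 82 changed sign; none of those 82 was called in the reported fit. Signs turned under library-size scaling CDKN1A, BT-TR1 v untreated 0.0156, FAS, both v trastuzumab 0.0172, BTG2, both v trastuzumab 0.00253, TP53I3, both v trastuzumab 0.00284, SESN1, BT-TR2 v BT-TR1 0.0406, CDKN1A, BT-TPR2 v BT-TPR1 -0.00669. With the replicate block CDKN1A, BT-TR1 v untreated 0.0107. With the GC correction CDKN1A, BT-TR1 v untreated 0.55, SESN1, BT-TR1 v untreated -0.14, MDM2, BT-TR2 v untreated -0.00763, TP53I3, both v trastuzumab 0.00899, CDKN1A, BT-TR2 v BT-TR1 -0.0283, SESN1, BT-TR2 v BT-TR1 0.22, TP53INP1, BT-TR2 v BT-TR1 0.19, ERBB2, BT-TR1 v untreated 0.076, ERBB2, BT-TR2 v untreated 0.0133. With the GC correction and the block CDKN1A, BT-TR1 v untreated 0.59, SESN1, BT-TR1 v untreated -0.14, MDM2, BT-TR2 v untreated -0.00597, TP53I3, both v trastuzumab 0.00247, CDKN1A, BT-TR2 v BT-TR1 -0.0482, SESN1, BT-TR2 v BT-TR1 0.22, TP53INP1, BT-TR2 v BT-TR1 0.19, ERBB2, BT-TR1 v untreated 0.0777, ERBB2, BT-TR2 v untreated 0.0121. Using limma CDKN1A, BT-TR1 v untreated 0.011. When only the compared groups were fitted CDKN1A, BT-TPR1 v untreated -0.0027. On replicates 2 and 3 FAS, both v trastuzumab 0.0701, BTG2, both v trastuzumab 0.00353, TP53I3, both v trastuzumab 0.13, RRM2B, BT-TR2 v trastuzumab -0.0119, FAS, BT-TPR2 v BT-TPR1 0.64. Leaving out each library in turn, the log2 ranges that crossed 0 were TP53I3, both v untreated -0.0808 to 0.16, CDKN1A, BT-TR1 v untreated -0.33 to 0.32, MDM2, BT-TR2 v untreated -0.0541 to 0.11, SESN1, BT-TR2 v untreated -0.0108 to 0.20, CDKN1A, BT-TPR1 v untreated -0.25 to 0.34, MDM2, BT-TPR1 v untreated -0.037 to 0.14, CDKN1A, BT-TPR2 v untreated -0.22 to 0.38, CDKN1A, both v trastuzumab -0.088 to 0.37, FAS, both v trastuzumab -0.41 to 0.29, MDM2, both v trastuzumab -0.0612 to 0.17, BTG2, both v trastuzumab -0.0978 to 0.0736, TP53I3, both v trastuzumab -0.19 to 0.0805, RRM2B, both v trastuzumab -0.0439 to 0.26, BTG2, BT-TR2 v trastuzumab -0.0471 to 0.0791, GDF15, BT-TR2 v trastuzumab -0.0509 to 1.36, TP53I3, BT-TR2 v trastuzumab -0.0106 to 0.20, RRM2B, BT-TR2 v trastuzumab -0.14 to 0.17, ZMAT3, BT-TPR2 v both -0.046 to 0.24, FAS, BT-TR2 v BT-TR1 -0.12 to 3.20, GDF15, BT-TR2 v BT-TR1 -0.35 to 0.24, SESN1, BT-TR2 v BT-TR1 -0.17 to 0.0608, FAS, BT-TPR2 v BT-TPR1 -1.15 to 0.16, GDF15, BT-TPR2 v BT-TPR1 -0.0779 to 0.70, SESN1, BT-TPR2 v BT-TPR1 -0.19 to 0.0147, ERBB2, BT-TR2 v untreated -0.27 to 0.13. The cause was not tested. Over all tested genes the calls moved by over 1.5 times in trastuzumab v untreated 1321 (4629 with the replicate block, 2472 on replicates 2 and 3, 2905 with the GC correction, 4934 with the GC correction and the block, 381 when only the compared groups were fitted, 597 to 879 leaving out 1 library), both v untreated 2190 (5750 with the replicate block, 4008 on replicates 2 and 3, 3911 with the GC correction, 5842 with the GC correction and the block, 896 when only the compared groups were fitted, 1104 to 1325 leaving out 1 library), BT-TR2 v untreated 4387 (8076 with the replicate block, 6715 with the GC correction, 8596 with the GC correction and the block, 2682 when only the compared groups were fitted), BT-TPR1 v untreated 4815 (8364 with the replicate block, 8972 with the GC correction and the block, 3111 when only the compared groups were fitted, 3156 leaving out 1 library), BT-TPR2 v untreated 5575 (9019 with the replicate block, 9268 with the GC correction and the block, 3060 when only the compared groups were fitted, 3665 leaving out 1 library), both v trastuzumab 153 (388 with the replicate block, 272 with the GC correction, 496 with the GC correction and the block, 55 when only the compared groups were fitted, 82 to 96 leaving out 1 library), BT-TR2 v trastuzumab 4091 (7359 with the replicate block, 6335 with the GC correction, 8146 with the GC correction and the block), BT-TPR1 v both 4568 (7787 with the replicate block, 8725 with the GC correction and the block), BT-TPR2 v both 4964 (8068 with the replicate block, 9016 with the GC correction and the block), BT-TR2 v BT-TR1 3129 (7555 with the replicate block, 5307 on replicates 2 and 3, 1652 with the GC correction, 1274 when only the compared groups were fitted, 534 to 833 leaving out 1 library), BT-TPR2 v BT-TPR1 609 (2119 with the replicate block, 1437 with the GC correction, 2807 with the GC correction and the block, 197 when only the compared groups were fitted, 351 to 371 leaving out 1 library). The replicate block, beside the calls given with it in the 10 paired comparisons, changed no other member's call there. Over all genes, another scaling moved the split of higher to lower calls by over 10 percentage points in 3 comparisons: BT-TPR1 against untreated (2280 to 2535, 2886 to 1684 under library-size scaling, median shifted to 0.14), BT-TPR1 against both antibodies (2098 to 2470, 2632 to 1720 under library-size scaling, 4945 to 3780 with the GC correction and the block, median 0.15 there under library-size scaling) and BT-TR2 against BT-TR1 (1701 to 1428, 2329 to 566 under library-size scaling, 677 to 975 with the GC correction, 1478 to 2106 with the GC correction and the block). In the 3 comparisons whose numbers did not pair all samples (lowest correlations -0.0106, 0.0961 and 0.0732), the block added RRM2B with both antibodies (0.44, adjusted p = 0.000587), MDM2 in BT-TR1 against trastuzumab (-0.29, adjusted p = 0.0328), and MDM2 (-0.30, adjusted p = 0.0428) and RRM2B (-0.55, adjusted p = 4.53e-05) in BT-TR2 against BT-TR1. Depth limits FAS in the pools, with 1 to 3 reads a group, and GDF15.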

Other observations

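A few more p53 pathway genes that were lower in 1 or more pools than in untreated cells were chosen after their values were seen. Other genes of the same lists rose, among them CCNG1 in all 4 pools. The counts of each list with the shares of all genes are given above. PLK3, a polo-like kinase induced by stress, was lower in BT-TR1 (-1.50 ± 0.50, adjusted p = 0.0176, log2 fold change ± SE), BT-TR2 (-1.68 ± 0.46, adjusted p = 0.0106), BT-TPR1 (-1.69 ± 0.47, adjusted p = 0.00962) and BT-TPR2 (-1.55 ± 0.45, adjusted p = 0.012). The PLK3 mean in these comparisons lay under the 5 CPM required of the list genes named above, and 2 of 3 BT-TR2 libraries reached the filter's minimum. Each call depended on a library. It ended in BT-TR1 with the GC correction (adjusted p = 0.0958), on dropping untreated replicate 1 (0.119) and on dropping BT-TR1 replicate 1 (0.0635) or 2 (0.0504), with 6.74e-05 to 0.119 across alternatives. In BT-TR2 it ended on dropping untreated replicate 1 (adjusted p = 0.0666) and on dropping BT-TR2 replicate 2 (0.0606), with 3.26e-06 to 0.0666 across alternatives. In BT-TPR1 it ended on dropping untreated replicate 1 (adjusted p = 0.068), with 3.16e-06 to 0.068 across alternatives. In BT-TPR2 it ended on dropping untreated replicate 1 (adjusted p = 0.0883), with 1.23e-05 to 0.0883 across alternatives.

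PIDD1, a death domain protein induced by p53, was lower in BT-TR1 (-2.68 ± 0.60, adjusted p = 0.00116) under all 16 alternatives. The means of PIDD1 and of BBC3 in this comparison lay under 5 CPM. PIDD1 reached the filter's minimum in 2 of 3 libraries of BT-TR1. BBC3, which encodes the BH3-only protein PUMA, was also lower there (-1.47 ± 0.50, adjusted p = 0.0219), and the call ended with the GC correction (adjusted p = 0.351), with the GC correction and the block (0.242), on dropping untreated replicate 1 (0.0895) and on dropping BT-TR1 replicate 2 (0.0748) or 3 (0.0976), with 8.18e-08 to 0.351 across alternatives.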
